A study of Mus musculus with 6 samples.

Results

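The Pou5f1 locus was examined as the stretch of mouse chromosome 17 from 35500000 to 35780000 in the mm9 build, a 280 kb interval in which Pou5f1 lies from about 35.643 to 35.648 Mb. Its members were all deposited pairs of 5 kb bins of chromosome 17 with at least 1 bin centred in that interval, which gave 391 of the 3654014 pairs in the table and 391 of the 137012 on chromosome 17. The pairs come from Hi-C, a sequencing assay in which DNA ends that lie close together in crosslinked nuclei are ligated and counted as contacts. It was done in P19 embryonal carcinoma cells, a mouse teratocarcinoma line that can turn toward neurons when it is given all-trans retinoic acid (ATRA), and the series concerns chromatin structure in the first steps of that conversion.

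All groups were P19 cells grown as a monolayer on gelatine-coated plates. T0 was not treated, T6 received 1e-06 M ATRA for 6 h and T48 received the same concentration for 48 h, with 2 replicate libraries in each group and 6 libraries in all. No untreated cells were sampled at 6 or 48 h, so the effect of ATRA and that of time in culture cannot be told apart. The labels do not say that the replicates were separate cultures, so every p-value below measures the spread between these libraries, which may be technical. The cell type could not be checked against marker genes, because the counts are of DNA contacts and not of RNA.

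Pou5f1 encodes Oct4, a POU-domain transcription factor that holds pluripotent cells in their undifferentiated state and is shut off when embryonal carcinoma cells differentiate. It is controlled by a promoter just before its start and by distal and proximal enhancers farther upstream, all close to the gene. The promoter carries GC boxes, which Sp1-family factors bind, and hormone-receptor half-sites, through which retinoic acid and orphan nuclear receptors are known to act on the gene. The gene lies in the major histocompatibility region. By the order of genes in RefSeq (GRCm38.p6), H2-Q6, H2-Q7, the pseudogene Gm8752, H2-Q10 and the non-coding RNA Gm32362 precede it, and Tcf19, Cchcr1, Psors1c2, Cdsn and the pseudogene Gm9613 follow it. The H2-Q genes encode MHC class I proteins and belong to a family of near-identical copies, whereas Tcf19 encodes a nuclear protein linked to cell growth, Cchcr1 a coiled-coil protein and Cdsn a protein of skin cell junctions.

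The 250 bases before the Pou5f1 start are shown because they lie next to or within the bin whose contacts are described first. They were taken from RefSeq for GRCm38.p6, where they are chr17:35505782-35506031 on the plus strand, and not for the mm9 build of the contact table. Capitals mark the 2 motifs that were searched on both strands, AGGTCA (a nuclear receptor half-site) and GGGCGG (the core of a GC box), which do not overlap here.
Pou5f1 promoter: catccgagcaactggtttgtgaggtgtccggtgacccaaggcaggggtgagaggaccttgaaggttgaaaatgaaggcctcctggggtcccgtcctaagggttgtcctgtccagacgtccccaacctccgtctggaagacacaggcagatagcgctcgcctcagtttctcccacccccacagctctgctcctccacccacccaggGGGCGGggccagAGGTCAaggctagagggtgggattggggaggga
AGGTCA occurred 1 time, with its first base 33 bases before the start, and GGGCGG occurred 1 time, with its first base 45 bases before it. The same letters were found in 14.0% and 32.7% of 32851 promoter sequences of that length. Each match describes this sequence, and whether it is a binding site was not tested. The sequence had 62% G and C.

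A 0 in the table means that the authors did not list that pair at that time point, and both replicates are then 0 together. At T0, 226 of the 391 pairs were listed, against 181 at T6 and 186 at T48. Those numbers at T6 and T48 are 80.1% and 82.3% of the number at T0. Among 8877 windows of 280 kb with at least 100 pairs listed at T0, the median of these shares was 84.6% at T6 (quartiles 80.0% and 89.6%) and 97.6% at T48 (quartiles 88.5% and 107.6%). The locus was thus at the lower quartile at T6, and 12.4% of windows had a share at T48 as low or lower. Listing is a single decision per time point, so these numbers have no replicate error and were not tested.

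All 3 time points listed 64 of the pairs (16.4%), while T0 alone listed 100 (25.6%), T6 alone 64 (16.4%) and T48 alone 89 (22.8%). Over all nuclear chromosomes these shares were 14.9%, 24.7%, 19.1% and 24.5%. Of the pairs listed at T0, 46.5% were also listed at T6 and 37.6% at T48, beside 40.2% and 40.9% over all nuclear chromosomes. The distance between the 2 bins of a pair had a median of 55 kb (T0), 50 kb (T6) and 80 kb (T48). Over all nuclear chromosomes those medians were 75, 75 and 85 kb.

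**Figure D1:**
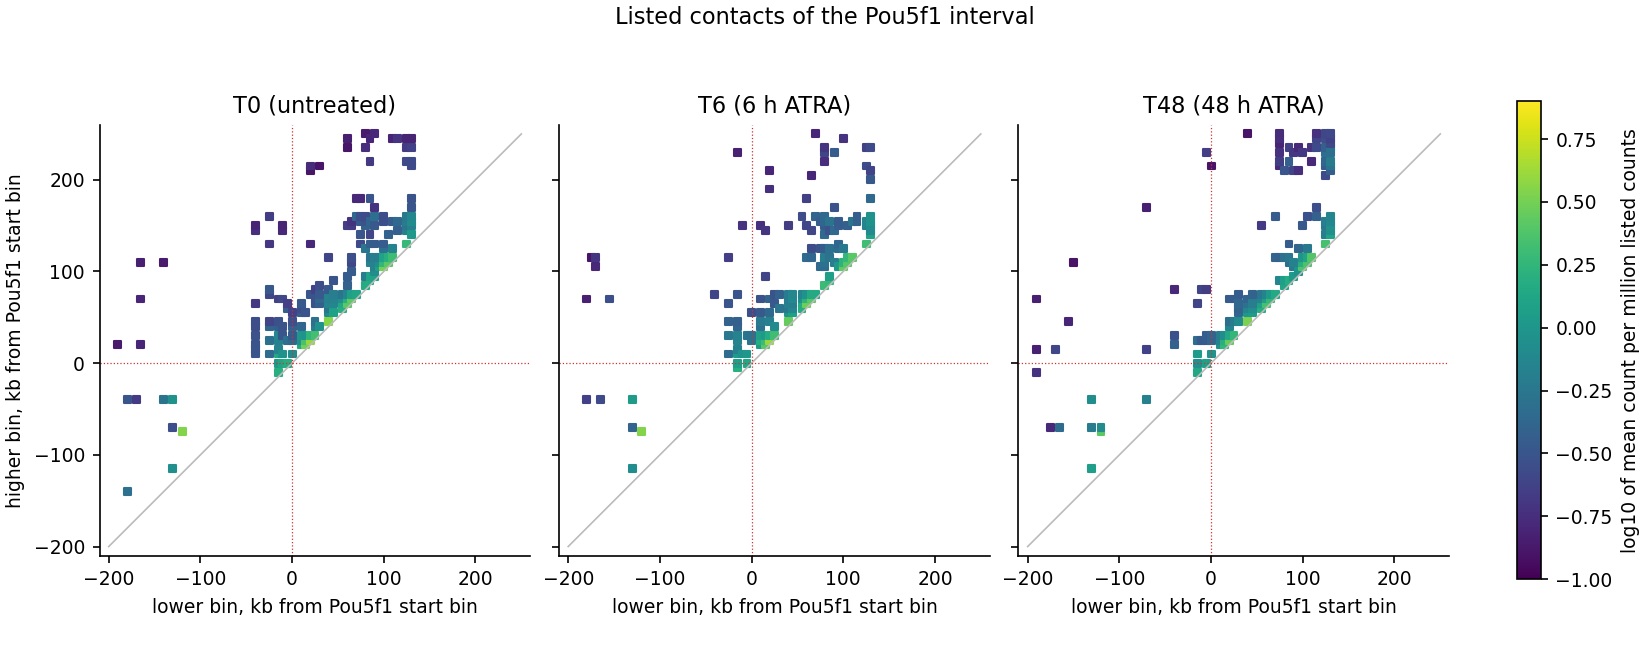
Listed contacts of the Pou5f1 interval at T0, T6 and T48, with the lower bin of each pair on the x axis and the higher bin on the y axis, both in kb from the centre of the bin that holds the Pou5f1 start (dotted lines). Colour gives the log10 of the mean of 2 libraries' counts divided by the library's sum of listed counts (in CPM), and pairs beyond the plotted range are left out. The dense contacts lie after the gene, the area before it is nearly empty, and at T48 a band of pairs stands 200 to 250 kb above the start bin that holds 37 pairs, against 19 at T0 and 14 at T6.

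The number of listed pairs moved differently by place. Pairs with both bins inside the interval numbered 126 (T0), 94 (T6) and 86 (T48). Of these, the pairs that joined a bin before the Pou5f1 start bin to one after it went from 29 at T0 to 16 at T6 and 12 at T48. Of 42 such pairs, 2 were listed at all 3 time points. Pairs with both bins after the start bin numbered 82, 68 and 62, and 39 of 110 were listed at all 3. The pairs with both bins inside had median distances of 30 kb (T0), 25 kb (T6) and 20 kb (T48). Over all nuclear chromosomes, T6 and T48 had 84.6% and 95.5% of the T0 number, and 80.4% and 84.0% among pairs 15 to 45 kb apart. Over all nuclear chromosomes and distances, 14.9% of pairs were listed at all 3 time points, and 6.94% of those 20 kb or more apart. Numbers by place, here and in the next paragraph, were not computed for other windows, so they are not shown to be particular to this locus.

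Pairs that left the interval upward behaved in 2 ways, over ranges that were chosen after the values were seen. Those with the upper bin 140 to 195 kb above the start bin numbered 39 (T0), 33 (T6) and 15 (T48). Those with the upper bin 200 to 250 kb above it numbered 19, 14 and 37, of which 25 were listed only at T48. The latter summed to 168 and 105 counts for the libraries of T0 (replicate 1 first, here and below), 118 and 77 for T6, and 437 and 306 for T48, with 0 added wherever a pair was not listed. Both T48 libraries were above all others, although replicate 1 was sequenced more deeply than replicate 2 at every time point. Both replicates of a time point share each 0, so this order largely follows the number of listed pairs and is not evidence from replicates. The counts of single pairs in this band were small, with a median of 6.5 (T0), 6 (T6) and 9 (T48).

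By distance, pairs 50 to 95 kb apart numbered 49 (T0), 35 (T6) and 22 (T48), so that T48 had 44.9% of the T0 number, beside 84.0% over all nuclear chromosomes. Pairs 100 to 195 kb apart numbered 36, 27 and 45, and T48 had 125% of the T0 number, beside 84.8% over all nuclear chromosomes. Pairs from 200 kb to under 500 kb apart numbered 16, 14 and 20, so that T48 again had 125% of the T0 number, beside 97.4%. Pairs 500 kb or more apart numbered 19, 19 and 15, and T6 and T48 had 100% and 79.0% of the T0 number, beside 83.1% and 125% over all nuclear chromosomes.

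The start of Pou5f1 lies in the bin chr17:35640001-35645000, and the rest of the gene in the bin chr17:35645001-35650000. The second bin had no listed pair at any time point, which does not show whether the 3′ part of Pou5f1 had contacts. The start bin had 10 pairs, of which T0 listed 9, T6 5 and T48 6. The median over 376858 bins of the table was 9 (T0), 8 (T6) and 9 (T48), so the start bin was at the median at T0 and at the lower quartile at T6 (5) and T48 (6).

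At T0, the start bin's highest counts were with the 3 bins just before it. With the bin 5 kb before it, the counts were 84 and 39 (T0), 68 and 24 (T6) and 60 and 30 (T48). With the bin 15 kb before it, they were 53 and 32 (T0), 47 and 27 (T6) and 50 and 17 (T48). Scaled to CPM (counts per 1000000 counts, after TMM, which assumes that most pairs do not change), the first pair had 2.94 and 2.38 (T0), 2.64 and 1.72 (T6) and 2.40 and 1.81 (T48). The second had 1.85 and 1.96, 1.82 and 1.93, and 2.00 and 1.02. The groups overlapped in both pairs. The bin 10 kb before it was listed only at T0, with 90 and 26 counts, the highest count of any of the start bin's pairs. The caller's threshold for that distance is not given in the sources used here, so the value of this pair at T6 and T48 is unknown and need not be low.

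After the gene, the start bin met the bins 25 and 30 kb away at every time point. The contact 25 kb away had 22 and 13 counts (T0), 21 and 13 (T6) and 18 and 13 (T48). The contact 30 kb away had 17 and 10 counts (T0), 21 and 12 (T6) and 19 and 11 (T48). In CPM, the first had 0.769 and 0.794 (T0), 0.814 and 0.930 (T6) and 0.721 and 0.783 (T48), and the T0 and T48 libraries overlapped. The second had 0.594 and 0.611, 0.814 and 0.858, and 0.761 and 0.662, so that both T0 libraries were the lowest. Their log2 ratios of T6 over T0 were 0.14 (SE 0.23) and 0.46 (SE 0.24), with an edgeR adjusted p of 1 for both. Their log2 ratios of T48 over T0 were -0.06 (SE 0.23) and 0.26 (SE 0.25), with edgeR adjusted p of 1 and 0.993. Beside the mean count of pairs of the same distance on chromosome 17 that were listed at all 3 time points, these contacts were 0.736 and 0.743 of that mean over the 6 libraries. The contact 15 kb before the gene was at 1.14 of it and the one 5 kb before it at 0.719.

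The other pairs of the start bin came and went. The contact 10 kb after it had 42 and 24 counts at T0 and 35 and 32 at T48 and was not listed at T6. The contact 55 kb after it had 12 and 7 counts at T0 and 11 and 7 at T6 and was not listed at T48. The contacts 40 kb after it (23 and 9 counts) and 45 kb after it (14 and 9 counts) were listed only at T0. A contact 215 kb after it, in the band described above, was listed only at T48, with 5 and 4 counts, which is 1.00 times the lowest count listed for that distance. These pairs all stood within 1.45 times the lowest listed count of their distance on average, so the list's lower bound lay close to them.

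**Figure D2:**
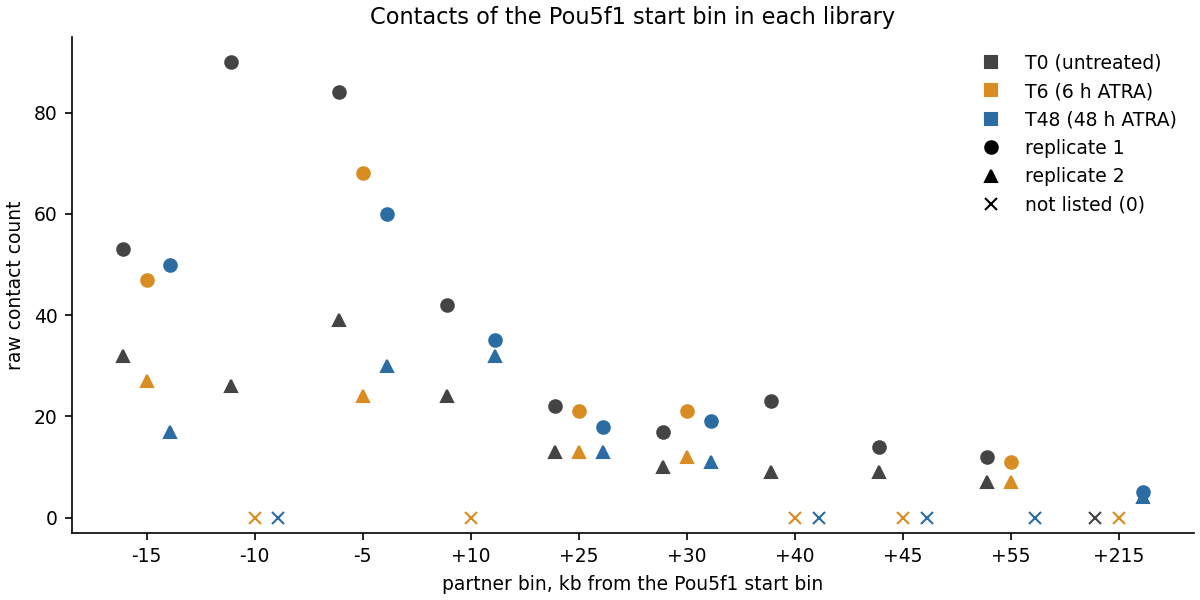
Raw contact counts of the 10 listed pairs of the Pou5f1 start bin in each of the 6 libraries, by the position of the partner bin in kb from the start bin. Circles are replicate 1 and triangles replicate 2, and crosses at 0 mark pairs not listed at that time point. The pair 10 kb before the gene stands at 90 and 26 counts at T0 alone, while the pairs 25 and 30 kb after it stay between 10 and 22 counts in all libraries.

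Summed over its 4 pairs listed at all 3 time points, the start bin had 176 and 94 counts (T0), 157 and 76 (T6) and 147 and 71 (T48). In CPM, scaled by TMM over bins, these were 3.03 and 2.85 (T0), 2.99 and 2.71 (T6) and 2.87 and 2.10 (T48). The groups overlapped, since replicate 1 at T48 was above replicate 2 at T0. The log2 ratio was -0.04 (SE 0.17) for T6 over T0, -0.23 (SE 0.17) for T48 over T0 and -0.19 for T48 over T6, and the adjusted p of edgeR's quasi-likelihood test over 310746 bins was 1, 0.883 and 0.960. No difference was detectable at this depth, and the T48 value rested on replicate 2, since the ratio of T48 over T0 was -0.49 without T48 replicate 1 and -0.04 without T48 replicate 2.

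Over all bins of the locus, the counts were mostly a little lower at T48 than at T0, on both sides of the start bin. Of the 56 bins of the interval, 39 had a listed pair and 32 had a pair listed at all 3 time points and passed the filter on low counts. In T48 over T0, 27 of these 32 had a ratio below 0, with a median log2 ratio of -0.21, whereas 49.4% of all bins tested were below 0, with a median of 0.00. Of the 10 tested bins before the start bin, 7 were below 0, with a median of -0.38. Of the 22 from the start bin on, 20 were, with a median of -0.19. Neighbouring bins share pairs, so the 32 are not independent. By edgeR, 0 of the 32 had an adjusted p under 0.05, where 0.00579% of all bins did. At an unadjusted p under 0.05, 9 of the 32 were lower and 0 higher, where 3.45% of all bins were lower and 2.66% higher. This count of 9 was 4 without T0 replicate 1 or without T48 replicate 2, and 4 with DESeq2, which also gave no bin an adjusted p under 0.05.

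For T6 over T0, the median over the 32 bins was -0.08, with 0 called by edgeR (0% of all bins) and 0 by DESeq2. At an unadjusted p under 0.05, 2 were lower (1.19% of all bins) and 0 higher (1.28%). For T48 over T6, the median was -0.18, with 0 called by either tool (0.00418% of all bins by edgeR), 3 lower at an unadjusted p under 0.05 (3.03%) and 0 higher (2.38%). The T6 over T0 and T48 over T0 comparisons share the T0 libraries, and their values are therefore not separate evidence.

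The bins from 10 to 30 kb after the start bin were next to each other and all were lower at T48. The bin 10 kb after it had 4.24 and 4.04 CPM (T0), 3.81 and 3.99 (T6) and 2.87 and 2.87 (T48). Both T48 libraries were below every other library there, with a T48 over T0 log2 ratio of -0.53 (SE 0.10, edgeR adjusted p = 0.613). The bin 15 kb after it had 5.98 and 5.16 (T0), 5.35 and 3.56 (T6) and 3.78 and 3.52 (T48). Its ratio of T48 over T0 was the lowest of the 32, at -0.61 (SE 0.19, edgeR adjusted p = 0.802), and its T6 libraries lay apart from each other. The bin 20 kb after it had 9.59 and 8.68 (T0), 7.80 and 6.87 (T6) and 6.57 and 5.45 (T48). The 3 groups did not overlap in this bin, and its ratios were -0.31 (SE 0.13) for T6 over T0 and -0.60 (SE 0.13) for T48 over T0, with adjusted p of 1 and 0.690. The bins 25 and 30 kb after the start bin had ratios of T48 over T0 of -0.44 (SE 0.11) and -0.31 (SE 0.10). These values rested in part on pairs of close bins. Without pairs under 15 kb apart, the T48 over T0 ratio was -0.46 (SE 0.15) in the bin 10 kb after the start bin, -0.16 (SE 0.21) in the bin 15 kb after it and -0.10 (SE 0.19) in the start bin itself. The bin 20 kb after the start bin had no value in that setting, so its ratio could not be assessed without the close pairs.

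The bins before the start bin had SEs for T48 over T0 from 0.15 to 1.62, against 0.10 to 0.38 from it on. The bin 15 kb before it had 2.93 and 2.64 CPM (T0), 2.40 and 2.35 (T6) and 2.22 and 1.95 (T48). Its T48 over T0 log2 ratio was -0.41 (SE 0.15, edgeR adjusted p = 0.815), and -0.38 (SE 0.14) without pairs under 15 kb apart. The other bin among the 3 with the lowest ratios, 125 kb before the start bin, had 0.172 and 0.425 CPM (T0), 0.438 and 0.748 (T6) and 0.117 and 0.266 (T48). It rested on 1 pair, and its T48 over T0 log2 ratio was -0.60 with an SE of 0.62. The highest ratio of T48 over T0 was in the bin 70 kb before the start bin, with 0.706 and 1.34 (T0), 0.837 and 1.71 (T6) and 1.95 and 1.21 (T48). Its log2 ratio was 0.70 (SE 0.44, edgeR adjusted p = 0.859), and only T48 replicate 1 was above all other libraries. The bin 115 kb before it had a ratio of 0.27 (SE 0.41).

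At the far end of the interval, the bin 130 kb after the start bin had a ratio of T48 over T0 of 0.20 (SE 0.11, edgeR adjusted p = 0.839). Its CPM were 5.01 and 4.49 (T0), 4.62 and 5.34 (T6) and 5.62 and 5.36 (T48). Both T48 libraries were the highest of the 6, by a small margin over T6 replicate 2. This bin also had the most listed pairs of the interval, 29, and its number went from 18 at T0 to 11 at T6 and 19 at T48. The bins 75 and 115 kb after the start bin had 27 pairs each and ratios of T48 over T0 of -0.13 (SE 0.12) and -0.02 (SE 0.21).

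**Figure D3:**
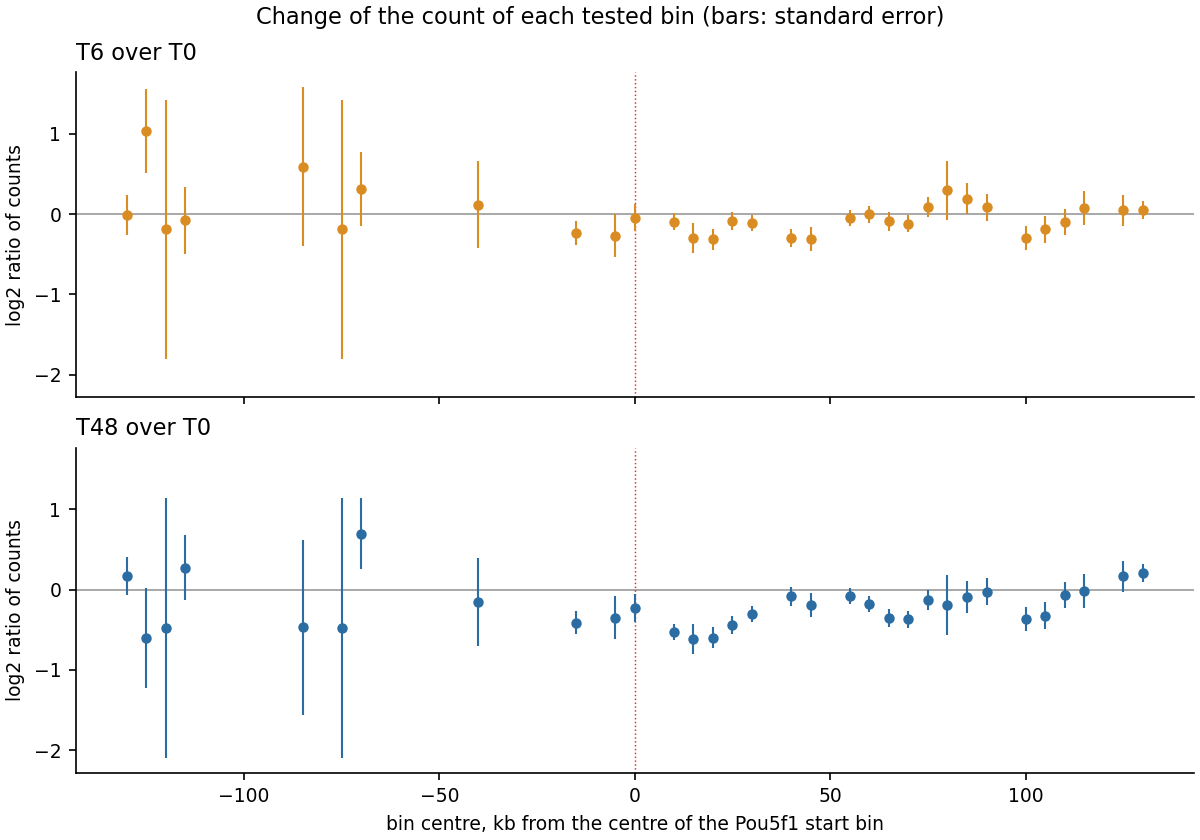
Log2 ratio of the contact count of each tested 5 kb bin for T6 over T0 (top) and T48 over T0 (bottom), with its standard error from edgeR, by position in kb from the centre of the Pou5f1 start bin (dotted line). At T48 the bins 10 to 20 kb after the start bin lie between -0.53 and -0.61, and the bins far before it have standard errors of up to 1.62.

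Over the 6 libraries, the bins whose log2 CPM were most like those of the start bin were those 105 kb after it (Pearson r = 0.95), 20 kb after it (0.82) and 15 kb before it (0.80). These values have no test, since the bins were picked as the highest from only 6 libraries and the bin 15 kb before the start bin shares a pair with it.

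The side before the gene was sparse. Of the 28 bins before the start bin, 12 had no listed pair at any time point, against 5 of the 28 from the start bin on. The sum over bins of listed pairs was 76 (T0), 50 (T6) and 47 (T48) before the start bin and 276, 225 and 225 from it on. This is the side where RefSeq places the H2-Q genes, whose near-identical copies can lose reads or receive those of another copy. Whether read assignment sets these counts was not tested.

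**Figure D4:**
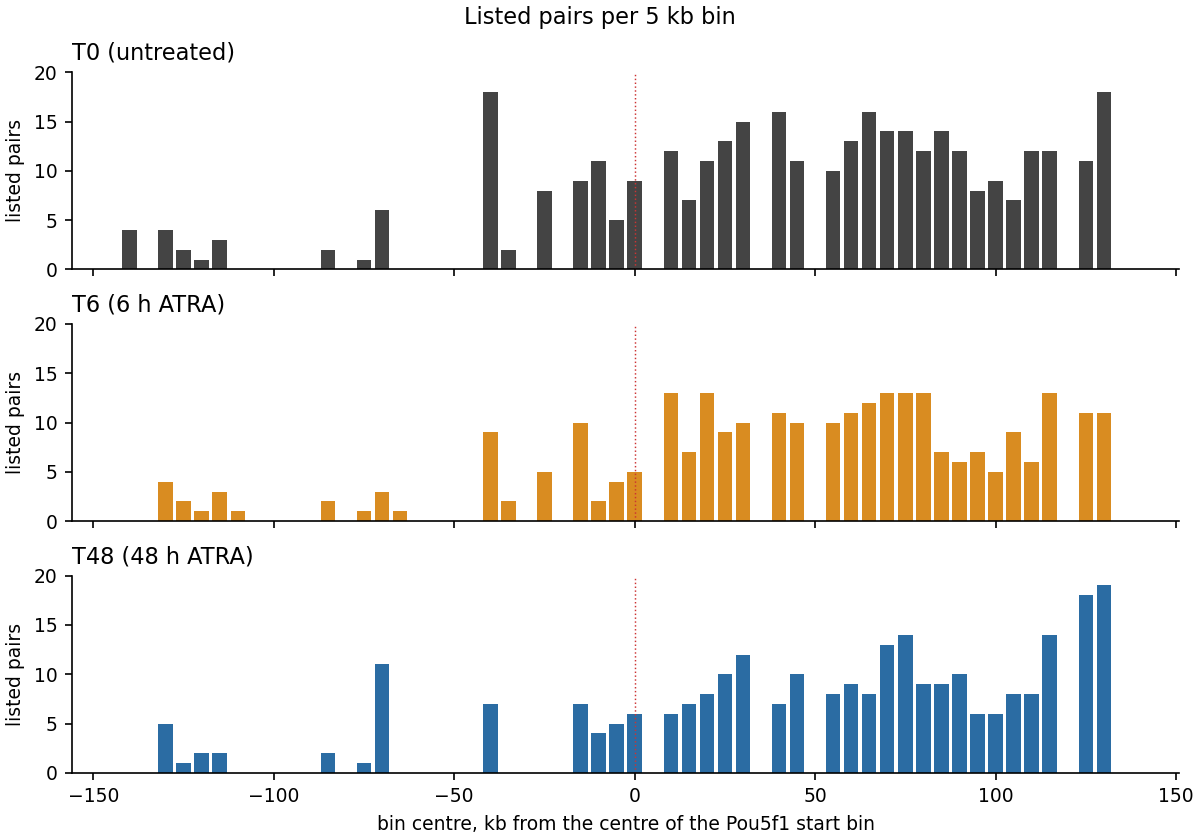
Number of listed pairs of each 5 kb bin of the interval at T0, T6 and T48, by position in kb from the centre of the Pou5f1 start bin (dotted line). Bars are counts of listed pairs with no error. Bins before the gene are often empty, the bin just after the start bin is empty at all time points, and the bin 130 kb after it holds 18, 11 and 19 pairs.

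Replicates also disagreed on that side. The pair of bins 120 and 75 kb before the start bin had 13 and 203 counts (T0), 18 and 151 (T6) and 13 and 145 (T48), so that replicate 2 was far above replicate 1 each time. Over all pairs of the table listed at all 3 time points, replicate 2 had a median of 0.575 times the count of replicate 1 (T0), 0.546 (T6) and 0.667 (T48). A pair 1420 kb long, from the bin 85 kb before the start bin to the bin centred at 34137500, was listed only at T48, with 4 and 55 counts.

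Of 20 member pairs 1000 kb or more apart, 18 had their interval bin before the start bin, and 17 of these reached 4 bins centred from 34117500 to 34147500. They spanned 1370 to 1490 kb, and T0 listed 13 of them, T6 13 and T48 8, with 5 listed at all 3. One of those listed throughout joined the bin 130 kb before the start bin and had 23 and 11 counts (T0), 20 and 6 (T6) and 12 and 7 (T48). Other pairs of these bins were higher in replicate 2 than in replicate 1, such as the one from the bin 85 kb before the start bin, with 8 and 22, 10 and 29, and 6 and 15. Whether the assignment of reads between near-identical copies bears on these pairs was not tested.

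In 50 kb windows, which add up more counts than bins, all 6 windows that touch the locus had ratios of T48 over T0 below 0, and 0 were called by edgeR (0.0263% of 49387 windows) or by DESeq2. At an unadjusted p under 0.05, 2 of the 6 were lower and 0 higher, where 8.59% of all windows passed in either direction. For T6 over T0 and T48 over T6, 0 of the 6 were called by either tool (0% and 0.0182% of all windows by edgeR), and 0 had an unadjusted p under 0.05 (1.73% and 6.72%).

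The window that holds Pou5f1, chr17:35600001-35650000, had 9.99 and 7.98 CPM (T0), 9.10 and 7.50 (T6) and 8.20 and 6.49 (T48). The libraries of replicate 1 were in the order T0, T6, T48, as were those of replicate 2, but the replicates differed by about as much as the time points and the groups overlapped. The T48 over T0 log2 ratio was -0.29 (SE 0.19, edgeR adjusted p = 0.719). The window after it, chr17:35650001-35700000, had 52.0 and 46.3 (T0), 44.5 and 42.3 (T6) and 40.6 and 37.4 (T48), and the 3 groups did not overlap. Its log2 ratio was -0.18 (SE 0.08) for T6 over T0 and -0.33 (SE 0.08) for T48 over T0, with adjusted p of 1 and 0.462. Blocked on the replicate number, its T48 over T0 adjusted p was 0.0397 by edgeR, in a fit that called 0.628% of all windows. The next window, chr17:35700001-35750000, had 49.8 and 42.4 (T0), 44.3 and 43.8 (T6) and 40.4 and 37.3 (T48), with a ratio of T48 over T0 of -0.25 (SE 0.09, edgeR adjusted p = 0.551). The last, chr17:35750001-35800000, had ratios of -0.00 (SE 0.06) at T6 and -0.11 (SE 0.06) at T48 over T0. The first 2 windows, before the gene, had SEs of 0.66 and 1.10 for T48 over T0, with 1.72 against 13.2 CPM in the 2 T0 libraries of the second.

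**Figure D5:**
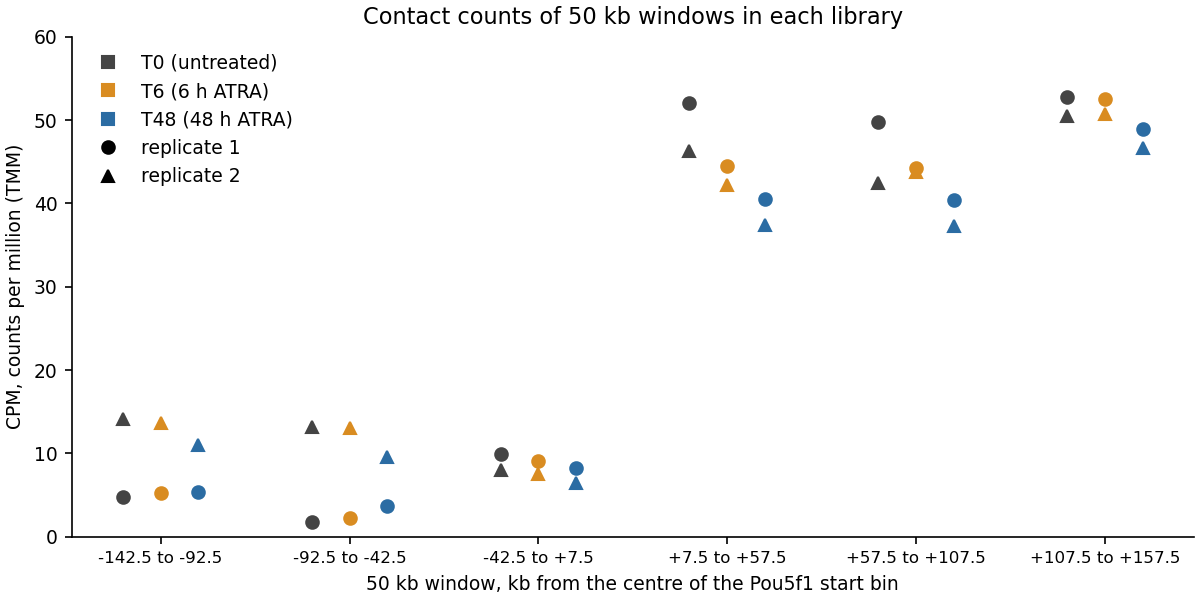
Counts scaled to CPM by TMM of the 6 windows of 50 kb that touch the Pou5f1 interval in each library, by position in kb from the centre of the start bin. Circles are replicate 1 and triangles replicate 2. In the window just after the gene the groups are in the order T0, T6, T48 without overlap (52.0 and 46.3, 44.5 and 42.3, 40.6 and 37.4), and in the first 2 windows the replicates lie far apart.

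The whole 280 kb interval, counted once over its 64 pairs listed at all 3 time points, had 4034 and 2227 counts (T0), 3293 and 1885 (T6) and 3057 and 1960 (T48). These were 129.6 and 126 CPM at T0 (127.9 ± 2.43, SD, n = 2), 116.7 and 125 at T6 (121 ± 5.98, SD, n = 2), and 110.7 and 108 at T48 (109 ± 1.83, SD, n = 2). Both T48 libraries were below all others, while the T6 libraries lay between the T0 and T48 libraries. The log2 ratio was -0.23 (SE 0.04) for T48 over T0, -0.08 (SE 0.04) for T6 over T0 and -0.14 (SE 0.04) for T48 over T6. The edgeR adjusted p over 9058 windows of that length was 0.188, 1 and 0.409, so none of the 3 was called, and 0% of all windows were called in each comparison. At an unadjusted p under 0.05 the locus was lower in T48 over T0 by edgeR's quasi-likelihood test, as were 8.81% of all windows.

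This result depended on the test and on distance. DESeq2 gave T48 over T0 an adjusted p of 0.00351, in a test that called 4.15% of all windows. A fit of edgeR blocked on the replicate number gave a log2 ratio of -0.23 and an adjusted p of 0.0246, in a fit that called 9.81% of all windows. Without pairs under 15 kb apart the log2 ratio was -0.12 (edgeR adjusted p = 0.800). The interval's own share of counts in pairs 5 to 10 kb apart was 68.6% and 60.7% (T0), 66.3% and 57.5% (T6) and 65.9% and 58.9% (T48). From the start bin on, which leaves out the sparse side before the gene, the ratio was -0.23 (SE 0.08, edgeR adjusted p = 0.319). The SE over the whole interval was 0.04, so the size of the ratio held without that side but its precision did not. From the start bin on, pairs under 15 kb apart had a ratio of -0.28 and pairs from 15 kb on one of -0.08. These 3 values were added after the data were seen. The counts were not corrected for how well each bin is covered, and whether coverage moved between time points was not tested.

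Of single pairs, 64 of 391 were listed at all 3 time points, and all 64 passed the filter on low counts. Their median log2 ratio was -0.03 for T6 over T0, -0.18 for T48 over T0 and -0.16 for T48 over T6, beside medians of 0.00 over all 496203 pairs tested. Being listed at every time point was required, so pairs that left the list are not in these medians. In each of the 3 comparisons 0 of the 64 were called by edgeR, where 0% of all pairs were, and 0 by DESeq2. At an unadjusted p under 0.05, 2 of 64 passed for T6 over T0 (3.17% of all pairs), 6 for T48 over T0 (5.52%) and 6 for T48 over T6 (5.06%), in either direction.

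Of the 3 higher pairs with the lowest p for T48 over T0, 1, described first, had an unadjusted p under 0.05 by edgeR. Of all 64, 1 pair was higher at that threshold and 5 were lower, where 12950 and 14440 of all 496203 pairs were. The pair from the bin 130 kb after the start bin to one 105 kb farther had 11 and 7 counts (T0), 11 and 6 (T6) and 19 and 18 (T48). Its upper bin lies in the band 200 to 250 kb above the start bin, and its T48 over T0 log2 ratio was 1.14 (SE 0.29, edgeR adjusted p = 0.781). The pair from the same bin to one 20 kb farther had 29 and 22, 35 and 17, and 41 and 25 counts, with a ratio of 0.47 (SE 0.21). The pair of bins 130 and 70 kb before the start bin had 17 and 7, 17 and 9, and 42 and 8 counts, and its ratio of 1.15 (SE 0.51) rested on T48 replicate 1, since it was -0.15 without that library.

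Among lower pairs, the bins 40 and 70 kb after the start bin had 39 and 16 counts (T0), 26 and 14 (T6) and 16 and 13 (T48), with a T48 over T0 log2 ratio of -0.79 (SE 0.25, edgeR adjusted p = 0.855). The bins 65 and 70 kb after it had 136 and 82, 103 and 60, and 81 and 56 counts, with a ratio of -0.56 (SE 0.19). The bins 15 and 20 kb after it had 163 and 90, 137 and 42, and 83 and 51 counts, with a ratio of -0.81 (SE 0.28). In each of these pairs both T48 counts were below the T0 count of the same replicate number. The pairs were picked by the lowest p, so this is not separate evidence.

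At T6, the pair of bins 10 and 25 kb after the start bin stood out in the other direction. It had 44 and 26 counts (T0), 61 and 35 (T6) and 36 and 17 (T48), with a T6 over T0 log2 ratio of 0.63 (SE 0.19, edgeR adjusted p = 1). Its neighbour, the bins 10 and 20 kb after the start bin, had 59 and 48, 47 and 25, and 40 and 27 counts and a ratio of -0.42 (SE 0.21). The pair that spans the gene from the bin 15 kb before to the bin 10 kb after the start bin had 80 and 37 counts (T0), 49 and 23 (T6) and 42 and 36 (T48). Its ratios were -0.51 (SE 0.21, edgeR adjusted p = 1) for T6 over T0 and -0.44 (SE 0.21, edgeR adjusted p = 0.917) for T48 over T0. The long pair from the bin 125 kb before the start bin to a bin 1380 kb lower had 10 and 14, 23 and 21, and 6 and 9 counts, with a ratio of T6 over T0 of 1.04 (SE 0.46).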

How the data were processed

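Hi-C libraries of P19 cells (2 at each of 3 time points) were analysed from 1 table of raw contact counts per pair of 5 kb bins, deposited by the authors and already reduced to interactions that they called significant and replicated. Reads were processed with CASAVA 1.8.2 and Bowtie2 on mm9, per the submitters' processing notes. The restriction enzyme, the interaction caller, its threshold and any correction for coverage are not given in the sources used here. Listed counts summed to between 23003295 and 50154643 per library. Mitochondrial pairs were not used.

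Counts were summed by bin, by 50 kb window and by 280 kb window over pairs listed at all 3 time points, with each pair counted once in a window. edgeR 4.0.16 (quasi-likelihood, TMM, filterByExpr, no block) was fitted over the whole table, with Benjamini-Hochberg adjustment and a threshold of 0.05. The SE is the size of the log2 ratio over the square root of F. DESeq2 1.42.0, other filters, distances and lists were tried as alternatives, and the scripts were tested on simulated data. Named were the bins of Pou5f1, the 3 bins with the highest and the 3 with the lowest T48 over T0 ratio, the 3 with most pairs, the 3 most like the start bin, the start bin's pairs and the pairs with the lowest p. Other pairs and ranges were chosen after their values were seen. The members and these lists were chosen with earlier results of these data known.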

Additional observations from a re-analysis of the deposited data

How the results depend on the processing

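The whole-locus ratio of T48 over T0 stayed below 0 under every alternative run, and from -0.24 to -0.21 without any 1 library. Its edgeR adjusted p was 0.0246 with the replicate block (value -0.23), where 9.81% of all 280 kb windows were called, and DESeq2 gave -0.23 with an adjusted p of 0.00351. With all listed pairs, where an unlisted pair counts as 0, the ratio was -0.33 for T48 over T0 (adjusted p = 0.00655 by edgeR) and -0.22 for T48 over T6 (0.0232). That setting called 44.3% of windows. In it both replicates of a time point share each 0, so their spread does not hold the error of listing. Whether this accounts for the share of windows called was not tested. For T6 over T0 the whole locus ranged from -0.13 to -0.03 without 1 library, and T48 over T6 from -0.19 to -0.09. Only pairs from 15 kb on turned T6 over T0 to 0.0096, and to 0.035 from the start bin on.

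The start bin ranged without 1 library from -0.12 to 0.018 for T6 over T0 (0.0045 without T0 replicate 1, 0.018 without T6 replicate 2), from -0.49 to -0.04 for T48 over T0 and from -0.44 to 0.0021 for T48 over T6. T6 over T0 was 0.11 from 15 kb on. With all listed pairs, the start bin was at -0.72 (T6 over T0), -0.69 (T48 over T0) and 0.030 (T48 over T6), and 8, 19 and 16 bins of the locus were called, where 30.5%, 36.7% and 40.8% of all bins were. Up to 39 bins of the locus, those with any listed pair, could enter that setting, against 32 in the main one. That setting also called 3 windows of 50 kb for T48 over T0 and 3 for T48 over T6 (43.1% and 43.7% of all windows), and the replicate block called 1 for T48 over T0 (chr17:35650001-35700000, edgeR adjusted p = 0.0397, 0.628% of all windows). The labels do not say what libraries of the same replicate number share, so the numbers alone do not establish pairs. The deviations of same-numbered libraries from their group means correlated at 0.379, 0.323 and 0.320 over all pairs and at 0.809, 0.752 and 0.695 over the 64 members (T0 with T6, T0 with T48, T6 with T48). Apart from this window and the whole interval, both for T48 over T0, the block changed no call of the locus.

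Of the pairs listed at T0, the share also listed at T6 was 75.4% in a stricter list (counts at least 1.5 times the lowest listed for that distance), 38.9% from 20 kb on and 72.1% when a match within 1 bin counted. The share also listed at T48 was 47.4%, 26.7% and 59.3%. Over all nuclear chromosomes the first 2 shares were 45.3% and 28.0% for T6 and 49.2% and 26.8% for T48, and the match within 1 bin was not computed there. Of those listed at T6, 29.6% were listed at T48 from 20 kb on and 60.2% within 1 bin. The mean ratio of the gene's pairs to expected was 0.835, and 1.07 with 1 bin more on each side. Values of T48 over T0 that changed sign were those of the first window (-0.81 to 0.77 without 1 library), of the second (-1.01 to 1.93 without 1 library, 0.15 with the replicate block, 0.57 with all listed pairs) and of the last (0.064 with all listed pairs). So did, without 1 library, the bins 125 kb before the start bin (-1.23 to 0.065), 115 kb before it (-0.12 to 0.69, and -0.018 with all listed pairs), 75 kb after it (-0.26 to 0.051) and 115 kb after it (-0.29 to 0.41, and 2.4e-05 with DESeq2), the start bin's pair 25 kb away (-0.11 to 0.0051) and the pair of bins 130 and 70 kb before it (-0.15 to 1.65). The cause was not tested. Counts of about 10 to 20 per library limit single pairs, and the list's lower bound limits what can be said of a pair that is missing at 1 time point.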
